A study of Arabidopsis thaliana with 3 samples.

Results

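The MYB transcription factor genes of Arabidopsis thaliana were examined for peaks of SOB3-GFP, a GFP fusion of an AT-hook protein that represses growth. Members were the protein-coding genes whose symbol in the NCBI TAIR10.1 gene table is MYB followed by a number and nothing else. This gave 115 of 27444 protein-coding genes on chromosomes 1 to 5. The label held for the members, since 114 of the 115 carried a synonym that calls them a myb domain protein, and the remaining one, MYB102, is listed there as MYB-like.

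MYB proteins bind DNA through imperfect helix-turn-helix repeats, and the large plant class has a pair of these, called R2R3. In plants this class controls phenylpropanoid and glucosinolate synthesis, lignified walls, cuticle, epidermal hairs, anther development and stress responses. Many members act as sets of close relatives, the subgroups, which share protein motifs outside the MYB repeats. Several work in a complex with bHLH and WD-repeat proteins, and small single-repeat MYB proteins inhibit that complex.

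Both ChIP replicates came from whole Columbia (Col-0) plants aged 14 days with the genotype ProSOB3::SOB3-GFP sob3-4, in which the SOB3 promoter drives the fusion in the sob3-4 background. Plants grew at 22 °C in 16 h of light and 8 h of darkness and were taken at ZT4, 4 h after lights-on, and an anti-GFP antibody was used for the precipitation. All libraries, the 1 input included, had this genotype. The design has no precipitation from plants without the fusion, and whole plants average over cell types. There were 9980 peaks in replicate 1, with a median fold enrichment of 2.58, and 4788 in replicate 2, with a median of 2.47. Fold enrichment is the authors' linear ratio of summit signal to control for each peak. Read totals are not part of peak lists, so no depth stands beside the folds. Whether the replicates were grown or harvested apart is not stated in the labels, and differences between them may be technical.

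A gene was called bound in a replicate when a peak summit fell inside it or no more than 1000 bp beyond either of its edges, so bound means only that a peak lies there. In both replicates 14 of the 115 MYB genes were bound (12.2%), beside 11.7% of all protein-coding genes. With this window the share of MYB genes was near the background. It was above it with narrower windows, at 4.35% of members beside 2.12% of all genes with the summit inside the gene (5 members) and 8.70% beside 5.36% with flanks of 250 bp (10 members), differences that were not tested. The replicate 1 list reached 39 members (33.9%, beside 28.7% of all genes) and the replicate 2 list 17 (14.8%, beside 13.7%). A summit lay at 25 members in replicate 1 only (21.7%, beside 17.0%) and at 3 in replicate 2 only (2.61%, beside 2.00%). In at least 1 list 42 members had a summit (36.5%, beside 30.7%), and 73 had none in either list (63.5%, beside 69.3%). At all 14 genes bound in both replicates, peaks of both lists overlapped by at least 1 bp (12.2%, beside 11.3% of all genes). Of the members bound in replicate 2, 82.4% were also bound in replicate 1, and 35.9% the other way round, beside 85.4% and 40.7% over all genes.

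MYB15 (AT3G23250), a stress regulator of cold responses and of lignin synthesis in defence, had the highest lower fold of both replicates among the members. Its region on chromosome 3 at 8308888 to 8309358 (TAIR10) reached a fold of 5.81 in replicate 1 and of 4.80 in replicate 2. These peaks ranked 76 of 9980 and 22 of 4788 by fold, and their summits lay 67 and 76 bp outside the gene, 9 bp apart. Replicate 2 had a further, weaker summit 558 bp from the gene, at a fold of 2.34, which replicate 1 did not list. MYB15 was the only member still bound in both replicates when each list was limited to its 1000 peaks of highest −log10 q, the significance adjusted by the caller. By fold, MYB20 (ranks 68 and 917) and MYB30 (611 and 928) were also among the first 1000 of both lists.

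MYB20 (AT1G66230), an activator of lignin and phenylalanine synthesis in secondary walls, had the highest replicate 1 fold of any member, 5.87 (rank 68), but 2.97 in replicate 2 (rank 917). Its region lay on chromosome 1 at 24676735 to 24677337, with summits 99 and 174 bp outside the gene. A summit beyond the other gene edge, at 224 bp, was listed in replicate 1 only (2.56). The replicates thus agreed on the place next to MYB20, while the fold was 1.98 times higher in replicate 1.

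Both MYB30 and MYB96 belong to subgroup S1 and promote the synthesis of very long chain fatty acids or wax. MYB30 (AT3G28910), known for hypersensitive cell death in defence and for brassinosteroid responses, had folds of 4.16 (replicate 1) and 2.96 (replicate 2). The region covered chromosome 3, 10910727 to 10911310, and the summits lay 208 and 222 bp from the gene. MYB96 (AT5G62470), a factor of the abscisic acid response to drought and of cuticular wax, had 2.86 and 3.08 at chromosome 5, 25078067 to 25078848. Its summits were 281 and 297 bp from the gene, and the replicate 1 peak was 780 bp wide against 289 bp in replicate 2. The remaining S1 genes MYB31, MYB60 and MYB94 had no summit in either list. MYB94 is a close relative of MYB96 in wax synthesis, and its nearest summits lay 4837 bp away in replicate 1 and 10144 bp away in replicate 2.

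MYB102 (AT4G21440), a gene of wounding and osmotic stress responses, had nearly equal folds of 3.42 and 3.41. The summits lay 10 bp apart at chromosome 4, 11417975 to 11418422, inside the gene but only 16 and 6 bp from its edge. Replicate 1 held a second summit 850 bp outside (3.19). The other S11 genes, MYB41, MYB49 and MYB74, had none within the window. For MYB74 the replicate 1 summit lay 1003 bp away, just past the limit.

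**Figure D1:**
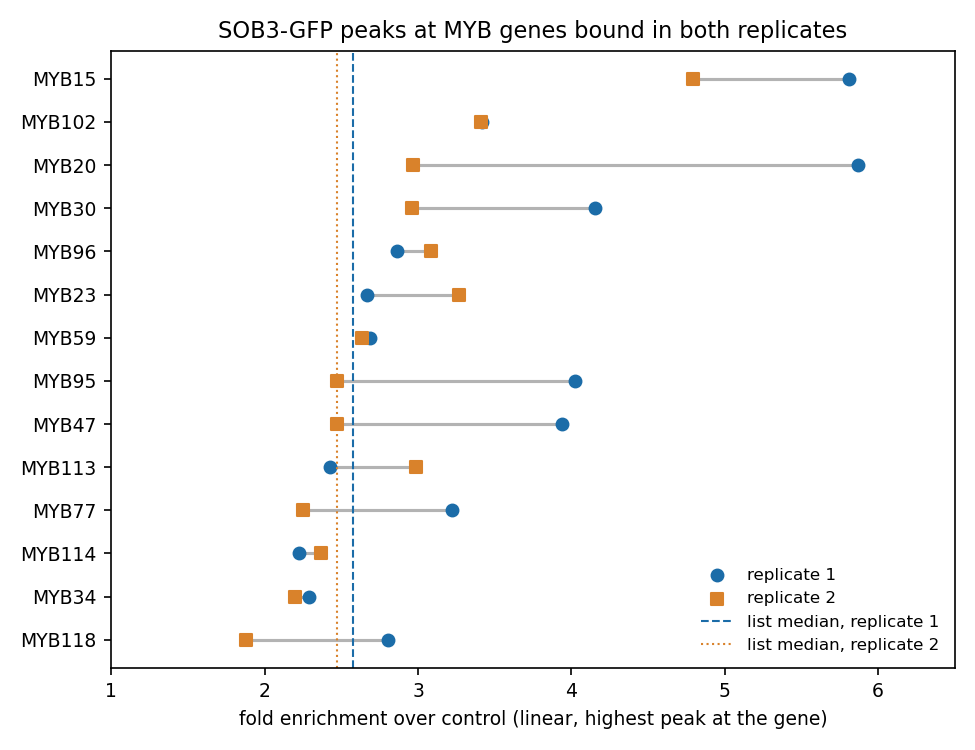
Fold enrichment of the highest peak at each of the 14 MYB genes bound in both replicates (circles replicate 1, squares replicate 2), with dashed and dotted lines at the medians of all peaks of each list, 2.58 and 2.47. MYB15 is high in both replicates, MYB20 is far higher in replicate 1, and MYB34 and MYB114 lie below both medians.

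Summits inside the gene in both replicates, and far from its edges, were found at MYB23, MYB34, MYB95 and MYB118. MYB23 (AT5G40330), a trichome regulator related to GLABRA1, had a fold of 2.67 in replicate 1 and a higher one, 3.27, in replicate 2, with summits 826 and 848 bp from the nearer edge. The region was chromosome 5, 16128364 to 16128708. GLABRA1 itself, listed as MYB0 (AT3G27920), had no summit closer than 20591 bp in replicate 1 and 8982 bp in replicate 2. MYB66, known as WEREWOLF, which sets non-hair cell fate in the root epidermis, had a replicate 1 summit 804 bp away with a fold of 2.86. That summit lay inside the neighbouring gene CA2, and an overlapping replicate 2 peak had its summit 1249 bp from MYB66, outside the window.

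MYB34 (AT5G60890), an activator of indole glucosinolate and tryptophan synthesis, had low folds of 2.29 and 2.20 at summits 10 bp apart (chromosome 5, 24495311 to 24495730). The 5 other genes of its subgroup S12, which drive glucosinolate synthesis, each had a summit in 1 list. In replicate 1 these were MYB29 (AT5G07690, fold 3.11) and MYB28 (AT5G61420, 3.004), which activate the aliphatic branch, and MYB51 (AT1G18570, 2.30) and MYB122 (AT1G74080, 1.89), which activate the indole branch. MYB76 (AT5G07700), the third aliphatic regulator and the direct neighbour of MYB29, had its summit in replicate 2 alone, at a fold of 2.53 and 269 bp from the gene. The replicate 1 summit at MYB29 and the replicate 2 summit at MYB76 lay 3194 bp apart, so they are not 1 region seen from both sides. All 6 glucosinolate genes therefore had a summit in at least 1 list, beside 36.5% of members and 30.7% of all genes. In both lists 1 of 6 had one, beside 12.2% of members and 11.7% of all genes.

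MYB118 (AT3G27785), a regulator of seed and endosperm maturation, had folds of 2.80 (replicate 1) and 1.88 (replicate 2). The replicate 2 peak was among the weakest of its list (rank 4592 of 4788) with a −log10 q of 1.94, where 1.30 corresponds to a q-value of 0.05. Its relative MYB115 (AT5G40360) had a summit inside the gene in replicate 1 only, at 2.67. The other 5 members of subgroup S25, MYB22, MYB64, MYB98, MYB100 and MYB119, had none.

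More than 1 overlapping pair of peaks was found at MYB47, MYB95 and MYB113. MYB47 (AT1G18710) had 3 summits in each list and 3 overlapping pairs with both summits in the window, the most of any member. The folds at these were 2.56, 3.93 and 3.94 in replicate 1 and 2.13, 2.47 and 2.26 in replicate 2, so each pair was higher in replicate 1. The summits of the 3 pairs lay 57, 7 and 3 bp apart, 1 pair beside the gene edge of lower coordinate and 2 beyond the other edge. MYB95 (AT1G74430) had 4 summits in replicate 1 and 2 in replicate 2. A replicate 1 peak 893 bp outside the gene (3.86) also overlapped a replicate 2 peak, whose summit lay outside the window. Its highest replicate 1 peak (4.02, 33 bp outside the gene) overlapped a replicate 2 peak of only 1.79, the highest ratio of folds among the member pairs (2.25), whereas the pair inside the gene had 3.06 and 2.47.

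The anthocyanin activators MYB113 and MYB114 are direct neighbours on chromosome 1, 2536 bp apart, and both were bound in both replicates. MYB113 (AT1G66370) had 2 pairs, with folds of 1.82 and 2.33 on one side and 2.43 and 2.99 on the other. MYB114 (AT1G66380) had 1 pair, with 2.23 and 2.37. All 3 pairs were higher in replicate 2, against the general direction. Between the genes, the MYB113 and MYB114 summits lay 1124 bp apart in replicate 1 and 1050 bp in replicate 2, so these were separate peaks. At the next gene of the cluster, MYB90, the nearest summit of either list lay 3015 bp away. These genes are near copies of each other, so reads from shared stretches can be placed at the wrong copy. The MYB113 pair of lower coordinate was closer to AT1G66360, 70 bp in replicate 1 and 43 bp in replicate 2. PAP1 (AT1G56650), the best known anthocyanin MYB, whose symbol keeps it outside the set, had a replicate 2 summit alone, at 2.08. The flavonol activators MYB11 and MYB12 had none, and MYB111 had a replicate 1 summit of 2.32.

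MYB59 (AT5G59780), a regulator of root growth, had folds of 2.69 and 2.64 at chromosome 5, 24081177 to 24081576. This region was nearer to AT5G59770, at 178 and 118 bp, than to MYB59, at 474 and 534 bp, and MYB59 was no longer bound in both replicates when each summit counted for its nearest gene alone. Replicate 1 listed 2 further summits at MYB59, with folds of 1.999 and 2.38. MYB77 (AT3G50060), which acts with auxin response factors in lateral root growth, had 3.22 in replicate 1 and 2.25 in replicate 2. The summits were 171 bp apart, 52 bp inside the gene edge in replicate 1 and 119 bp outside it in replicate 2. Its S22 relatives MYB70 (2.67) and MYB73 (2.75) had a summit in replicate 1 only, as did MYB44, listed as MYBR1, at 2.26.

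**Figure D2:**
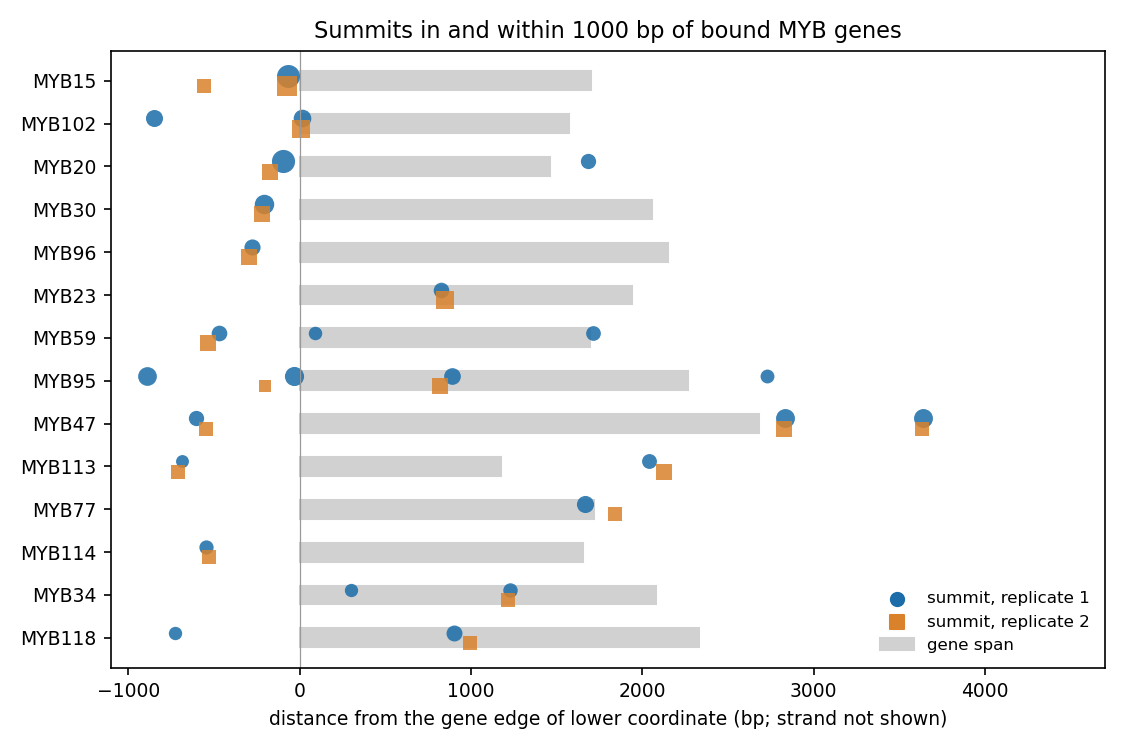
Summits of both replicates (circles replicate 1, squares replicate 2, area growing with fold) by distance in bp from the gene edge of lower coordinate, with the gene span as a grey bar. At MYB15, MYB20, MYB30 and MYB96 the paired summits stand just outside the gene, at MYB23, MYB34 and MYB118 well inside it, and MYB47 has 3 pairs. Strand was not used, so the left side is not always upstream.

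In all, 18 overlapping pairs of peaks had both summits at the 14 members. Of these, 5 lay inside the gene in both replicates, 1 straddled a gene edge, and 12 were outside, 5 within 250 bp and 7 farther. The paired summits were a median of 24.5 bp apart (range 3 to 171 bp), and 16 of 18 were within 100 bp. All 3941 overlapping pairs of the series had a median of 40 bp, with 3134 within 100 bp. These were not limited to a gene window, whereas overlapping peaks with 1 summit outside it, as at MYB66 and MYB95, were left out at members. The distances are therefore not compared on like terms. Fold was higher in replicate 1 in 13 of 18 pairs (72.2%), beside 67.8% of all pairs. The median ratio of replicate 1 to replicate 2 was 1.21 at members (range 0.784 to 2.25) and 1.12 over all pairs. In 4 pairs fold was more than 1.5 times higher in replicate 1, and in 5 the replicates were within 10% of each other.

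**Figure D3:**
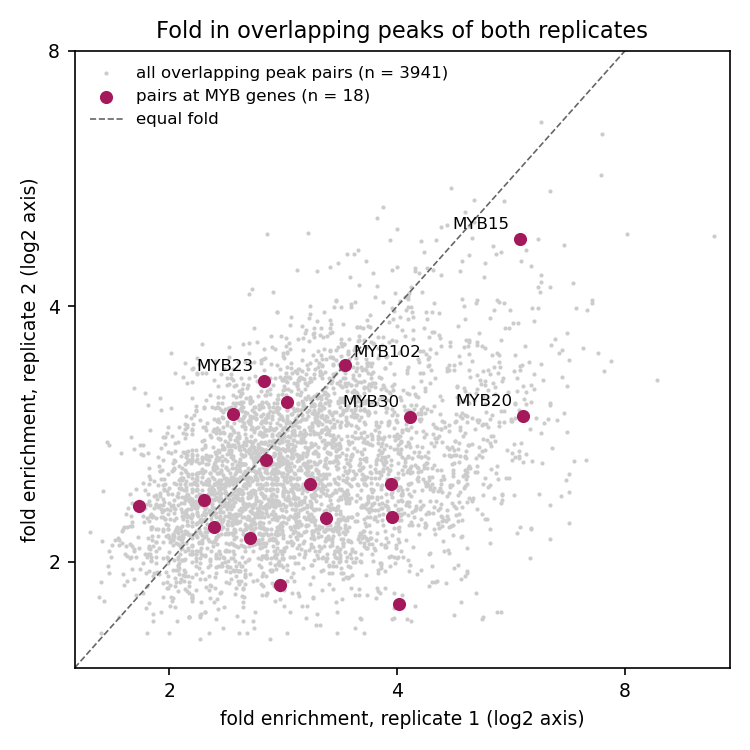
Fold enrichment in replicate 1 against replicate 2 on log2 axes for the 18 overlapping peak pairs at MYB genes (large points) and all 3941 overlapping pairs (small grey points), with a dashed line of equal fold. The MYB pairs spread over the same field as the others, with MYB15 near its upper edge, MYB102 on the line and MYB20 far to the replicate 1 side.

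Counted over all summits at members, and not over pairs alone, replicate 1 had 56 and replicate 2 had 22. In replicate 1, 26 members had 1 summit, 10 had 2 and 3 had more, and in replicate 2 these numbers were 13, 3 and 1. Inside the gene lay 30.4% of these in replicate 1 and 27.3% in replicate 2. Over all genes it was 23.8% of 9921 and 19.9% of 4209 pairs of a summit and a gene. There a summit in the window of several genes was counted for each of them. Within 250 bp outside lay 23.2% and 27.3% of the member summits, beside 30.9% and 26.6% of those pairs. The MYB gene was the nearest protein-coding gene for 48 of the 56 and 20 of the 22 summits. No share over all genes stands beside these counts, and the gaps around MYB genes were wider than around other genes, as given below. No peak counted for a pair of MYB genes at once. Of the replicate 1 summits, 35.7% belonged to a peak that overlapped one of replicate 2, beside 38.5% of the whole list, and of the replicate 2 summits 81.8%, beside 81.9%. The share of overlapping peaks at MYB genes was thus close to that of the lists as a whole. Among overlapping pairs, fold itself was only weakly correlated between replicates. Peaks without an overlapping peak in the other list do not enter these values, and some pairs share a peak or a gene. The Spearman correlation was 0.232 over the 18 member pairs and 0.345 over all 3941 pairs, and the Pearson correlation of log2 fold was 0.398 and 0.380.

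Among the 25 members with a summit in replicate 1 only, fold ran from 1.74 to 3.72 with a median of 2.68. The 14 members bound in both replicates ran from 2.23 to 5.87 with a median of 3.04 in replicate 1, so the ranges overlapped, and over all genes the medians were 2.48 and 3.01. The highest was MYB16 (AT5G15310, 3.72), a factor of cuticle formation and conical epidermal cells, with a summit 740 bp away and closer to AT5G15320. It was followed by the phenylpropanoid repressor MYB7 (AT2G16720, 3.62), whose summit lay inside the gene. MYB62 (AT1G68320, 3.61), a regulator of the phosphate starvation response, had its summit 978 bp away, just inside the window. MYB13 (AT1G06180, 3.52), the relative of MYB15, had it inside the gene. These 4 folds were higher than those of several genes bound in both replicates, yet replicate 2 listed no summit in their windows.

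The rest of the 10 highest were MYB29 and MYB28, given above, MYB4 (AT4G38620, 2.87), MYB17 (AT3G61250, 2.86), MYB66 and MYB108 (AT3G06490, 2.86). MYB4 represses the phenylpropanoid pathway and its sinapate esters, MYB17 is a meristem identity gene, and MYB108 acts in jasmonate-dependent stamen maturation. For MYB4, MYB7, MYB29 and MYB66 a replicate 2 summit lay between 1174 and 1614 bp away, so they counted as bound in both replicates with flanks of 2000 bp. Only at MYB66 did the replicate 1 peak overlap a replicate 2 peak. The replicate 2 summit near MYB29 is the one counted for MYB76. In replicate 2 only, the axillary meristem gene MYB84, also called RAX3 (AT3G49690), had a summit inside the gene with a fold of 2.45. MYB78 (AT5G49620) had one of 2.43 at 904 bp. The fold of the other 15 members of replicate 1 only was between 1.74 and 2.75. Just outside the window, MYB89 had a replicate 2 summit at 1011 bp.

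The R2R3 subgroups, as listed for these counts, held 91 of the members in 22 subgroups. The other 24 members, among them MYB20, MYB47, MYB59 and MYB95, were in none of them. As listed here S15 holds MYB23 and MYB66, so their relative MYB0 (GLABRA1), without a summit, counts among the 24. With MYB0 added, S15 would hold a gene without a summit. A gene bound in both replicates occurred in 8 subgroups, a gene with a summit in 1 list only in a further 7, and the remaining 7 had no summit at their 26 members. No subgroup had more than 2 genes bound in both replicates. Subgroup S4, the phenylpropanoid repressors, had replicate 1 summits at MYB3 (AT1G22640, 2.70), MYB4 and MYB7 and none at MYB32. All 8 members of S21, which holds the wall regulators MYB52, MYB54 and MYB69 and the boundary gene MYB117, had no summit in either list. The same was so for S3, with the lignin activators MYB58 and MYB63 and the iron deficiency genes MYB10 and MYB72, and for the suberin-related S24. Of the 7 GAMYB-like genes of S18, which act in anthers and pollen and are targets of miR159, MYB65 alone had a summit, in replicate 1 (1.84). These counts stand beside 12.2% of members and 11.7% of all genes bound in both replicates. A summit in replicate 1 only lay at 21.7% of members and 17.0% of all genes, and 63.5% and 69.3% had none. Subgroups are small, and no test was made between them.

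**Figure D4:**
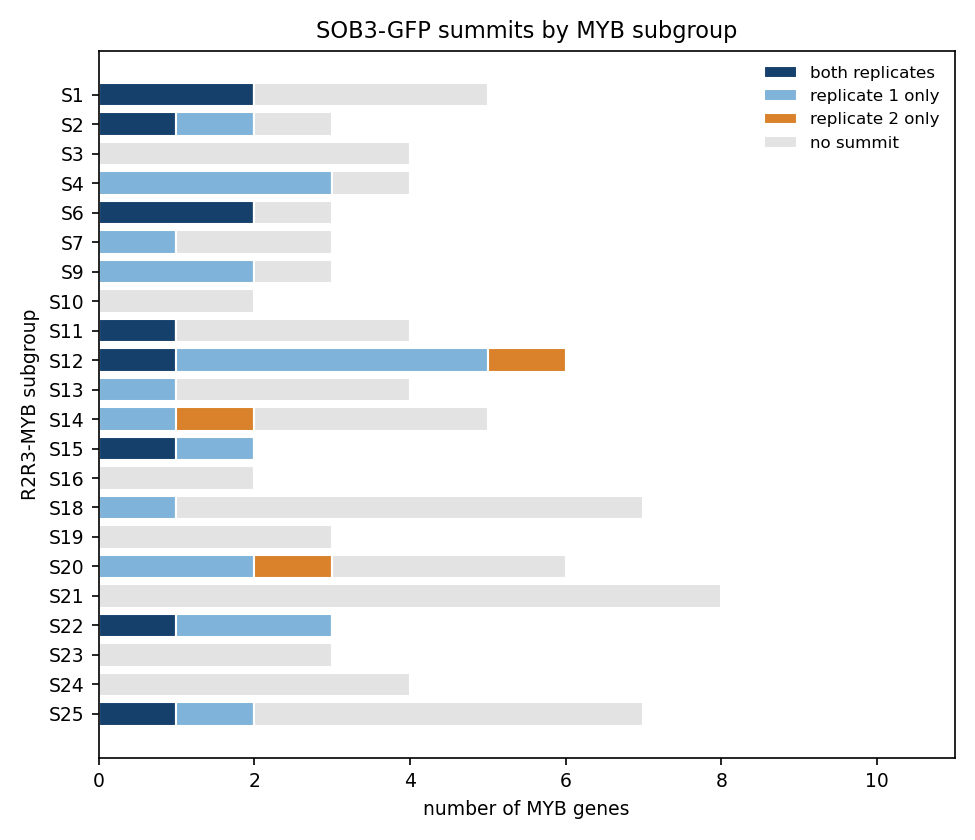
Number of MYB genes per R2R3 subgroup, stacked by whether a summit lay in the gene or within 1000 bp in both replicates, in 1 replicate or in neither. Bars of S12, S15 and S22 hold no gene without a summit. S15 is listed as MYB23 and MYB66, and their relative MYB0, left out of it, had no summit. The bars of S3, S10, S16, S19, S21, S23 and S24 hold only genes without a summit.

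By role, the stress and abscisic acid list had 4 of 12 members bound in both replicates (MYB15, MYB77, MYB96 and MYB102) and 4 more in replicate 1 only. This count depends on which genes were listed, a choice made with earlier results known. Off the list are the relatives MYB41, MYB49, MYB31, MYB60 and MYB94, without a summit, and MYB30, bound in both replicates. The secondary wall and lignin list had 1 of 13, MYB20, and 2 in replicate 1 only, MYB43 (1.74) and MYB46 (2.60). MYB46 is a master switch of secondary wall formation, and at its equivalent MYB83 the nearest summit of either list lay 13445 bp away. The MYB46 summit itself lay inside another gene, DiT1, 513 bp from MYB46. Cuticle and suberin genes had 2 of 12, MYB30 and MYB96, and 9 without a summit. Flavonoid and anthocyanin activators had 2 of 7. Of the 4 jasmonate-dependent stamen genes MYB108 alone had a summit, and the 3 listed anther and pollen members, the 2 stomatal members MYB60 and MYB88, and the endodermal gene MYB36 had none. The lists overlap, and beside each stands the 11.7% of all genes bound in both replicates. Of all genes, 17.0% had a summit in replicate 1 only and 69.3% had none in either list.

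Genes that work with MYB proteins were counted from a separate list, to be read beside the 11.7% of all genes bound in both replicates, the 17.0% with a summit in replicate 1 only and the 2.00% in replicate 2 only. Of 7 genes for small R3-MYB inhibitors, 2 were bound in both replicates, ETC1 (AT1G01380) with folds of 3.67 and 3.24 and CPC (AT2G46410), the mobile inhibitor that sets root hair fate, with 3.03 and 2.67. Replicate 1 alone had summits at TRY (2.45), at ETC3, listed as CPL3 (2.49), and at the anthocyanin repressor MYBL2 (4.15), and replicate 2 alone at TCL1 (2.62). Of the 5 bHLH and WD-repeat partners none was bound in both replicates, while TT8 (2.73), EGL3 (2.48) and TTG1 (2.14) had replicate 1 summits. Of 6 R2R3 genes with another symbol, none was bound in both replicates. AS1, a leaf polarity and boundary regulator, had a replicate 1 summit of 3.38. The 5 MYB genes whose symbol goes on after the number, MYB4R1 and 4 of the cell cycle MYB3R genes, had no summit in either list.

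MYB genes were slightly shorter than other genes, with a median span of 1763 bp against 2078 bp, and had wider gaps to their neighbours, with a median of 5624 bp for both sides together against 1856 bp. Within the family, the 14 genes bound in both replicates had median gaps of 7759 bp, the 25 of replicate 1 only 7646 bp, and the 73 without a summit 5159 bp. Over all genes these medians were 2726 bp for genes bound in both replicates and 1597 bp for genes without a summit. The part of gap width in the calls was not tested. By chromosome, 5 of 25 members on chromosome 1 were bound in both replicates (beside 11.8% of all its genes), 4 of 28 on chromosome 3 (11.3%), 1 of 16 on chromosome 4 (11.7%) and 4 of 35 on chromosome 5 (11.4%). On chromosome 2 it was 0 of 11 (12.6%), where MYB7 and MYB70 had a summit in replicate 1 only.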

How the data were processed

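Reads were aligned with Bowtie 0.12.9 to TAIR10 and MACS2 called the peaks, as the submitters' processing notes list. For the caller, a version, a control or a threshold is not given in the sources used here. Each replicate has its own list. The authors' deposited columns used were fold enrichment, a linear ratio to control, and −log10 q. The authors' deposited −log10 p column was only copied. The authors' deposited score equalled −log10 q times 10, cut to a whole number, for 100% of peaks in both lists and was not used. The input library was not analysed here.

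Summits were set against gene spans of the NCBI TAIR10.1 table, whose nuclear coordinates are taken to equal TAIR10. It holds no strand or sequence, so the planned steps on gene sides, promoters and protein relatives were not run. The assignment was tested on simulated peaks (Python 3.11.15, pandas 2.3.3). A gene's fold in a replicate is that of its highest peak in the window. The members, lists and named genes (all bound in both replicates, the 10 of highest replicate 1 fold among those of replicate 1 only, and all of replicate 2 only, besides whole subgroups) were chosen with earlier results of these data known. Genes named as examples without a summit, and those just beside the window limit in 1 list, were picked after their values were seen. No member had its nearest summit between 1001 and 1500 bp in both lists. With 1 group and no comparison group, no test was run and counts stand beside those of all genes.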

Additional observations from a re-analysis of the deposited data

How the results depend on the processing

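The 14 MYB genes bound in both replicates became 5 with summits in the gene span only (4.35% of members, 2.12% of all genes). They became 3 at −log10 q of at least 10 (MYB15, MYB96 and MYB102, 2.61% and 1.86%). Among the top 1000 peaks of each list by −log10 q, 1 was left (MYB15, 0.870% and 0.998%). Single lists gave between 17 members without replicate 1 and 39 without replicate 2. Under the other 9 alternatives the count stayed between 10 and 19, within 1.5 times. These were flanks of 250, 500 and 2000 bp, −log10 q of at least 5, overlapping peaks, a reciprocal overlap of 50%, any base of the peak, the nearest gene only, and symbols that go on after the number. The share of members was above that of all genes with flanks of 250 bp (8.70% and 5.36%) and 500 bp (9.57% and 8.05%), for peaks past a −log10 q of 5 (9.57% and 7.10%) and for the nearest gene only (11.3% and 8.77%). In the other 5 it was within 1 percentage point. A further alternative, chosen after seeing the data, added 10 genes with a MYB number as a synonym and left the count at 14 of 125. MYB102 and MYB15 were kept in 10 of 11 settings of window, threshold and overlap, and MYB59 in 5. No paired analysis was possible because the ChIP libraries form a single group. Peak lists cannot show signal below the caller's threshold, so a gene without a peak is not shown to lack SOB3-GFP.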
